A study of Mus musculus with 6 samples.

Results

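The genes described here encode the subunits of oxidative phosphorylation (OXPHOS), that is, of respiratory chain complexes I to IV and of the ATP synthase, complex V, and were measured in the liver of pregnant mice with and without hepatocyte ChREBP. Members were chosen by symbol alone: Nduf followed by a, b, c, s or v and a number, *Sdha* to *Sdhd*, symbols starting with Uqcr, with Cox4 to Cox8 or with Atp5, and the Nd, Co, Atp and Cyt genes of mitochondrial DNA. Pseudogene symbols (-ps) were left out, and a mean of at least 1 FPKM (the read count of a gene scaled by its exonic length and by the library's total) over the 6 libraries was required. Of 110 matching genes, 97 were members, out of 56691 genes in the table and 10866 genes that reached the same minimum. The nuclear genome encodes 84 of them, 39 of complex I, 4 of complex II, 8 of complex III, 16 of complex IV and 17 of complex V. Mitochondrial DNA encodes the other 13, 7 of complex I, 1 of complex III, 3 of complex IV and 2 of complex V. Of the 13 matching genes that were not members, 8 carry a pseudogene symbol and 5 were under the minimum. *Cox4i2*, an alternative form of *Cox4i1*, had 12, 15 and 0 reads in KPF 1, 2 and 3 and 5, 3 and 1 reads in WPF 2, 3 and 4, while *Cox7b2*, *Cox8c*, *Ndufa11b* and a further gene ID named *Atp5o* had no counted read. The symbols are not a perfect guide to the complexes. *Atp5s*, a coupling factor, and *Cox7a2l*, which joins complexes into supercomplexes, matched without being structural subunits, *Ndufa4* is grouped with complex I by its symbol although its protein sits in complex IV, and the subunit genes *Cyc1*, *Ndufab1* and *Usmg5* did not match.

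KPF stands for 3 h*Chrebp* KO dams (*Chrebp* flox/flox with 1 copy of Alb-Cre, replicates 1, 2 and 3) and WPF for 3 *Chrebp* flox/flox dams without Cre (replicates 2, 3 and 4, whose genotype the sample labels give as wild type). In both groups the floxed alleles stand on a C57BL/6J background, the dams were mated with *Chrebp* flox/flox males, and a high-fructose diet (HFrD) was fed from mating until the dams were killed in late pregnancy. The age of the dams is not given in the sources used here. The Alb promoter drives Cre in hepatocytes, so the other cells of the liver keep *Mlxipl*, the gene of ChREBP, and RNA of whole liver was sequenced.

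OXPHOS is the last stage of fuel oxidation. Complex I takes electrons from NADH and complex II from succinate, both pass them to ubiquinone, complex III hands them to cytochrome c, and complex IV reduces oxygen. Complexes I, III and IV pump protons across the inner membrane, and complex V lets them flow back to make ATP. The subunits come from separate genomes: a small set of hydrophobic core proteins is translated inside the mitochondrion from mitochondrial DNA, and the remaining subunits are encoded in the nucleus and imported. Hepatocytes are rich in mitochondria, and ChREBP is a transcription factor that responds to sugars and drives glycolytic and lipogenic genes. Some subunits of complex IV exist as a form used in liver and most other tissues and a form of heart and skeletal muscle.

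Values are given below for KPF 1, 2 and 3 and then for WPF 2, 3 and 4, in that order. Unless stated otherwise they are nFPKM, that is, FPKM after edgeR's TMM scaling of the libraries. The exonic length in it can far exceed that of the annotated transcript, unequally by gene (6443 against 544 bases for *Atp5l*). Levels of different genes can therefore be compared only roughly. The libraries held 10694496 to 14496630 counted reads, every KPF library being smaller than every WPF library, and the libraries within each group differed by far more than sampling noise (chi-square per gene of 35.5 or more). *Mlxipl* stood at 32.4, 126 and 153 in KPF and at 174, 228 and 159 nFPKM in WPF, so the KPF libraries lay below the WPF libraries, KPF 1 by far the most (the log2 fold change was -0.84 (SE 0.53, unadjusted p = 0.152, adjusted p = 0.584) in edgeR's quasi-likelihood test). The hepatocyte markers summed to 42690, 37150 and 49110 in KPF and 79840, 47640 and 47720 nFPKM in WPF. Most of this sum was *Alb*, at 27740, 29100 and 38500 in KPF and 63490, 39030 and 38180 nFPKM in WPF. Of the 6 markers 3 had a positive and 3 a negative log2 fold change, with a median of 0.01. KPF 2 stood apart, since the sum of 10 striated muscle markers was 5.18, 2453 and 4.61 in KPF and 8.98, 6.23 and 3.87 nFPKM in WPF, with all 10 highest there. The erythroid sum was 674, 134 and 369 in KPF and 61.0, 162 and 423 nFPKM in WPF, highest in KPF 1. The Kupffer cell sum was 45.1, 73.3 and 69.5 in KPF and 53.4, 76.1 and 99.5 nFPKM in WPF. All 5 of its markers had a negative log2 fold change (median -0.25), none with an unadjusted p under 0.05. The biliary sum was between 1.46 and 4.91 nFPKM. The sinusoidal endothelial sum was between 19.5 and 22.8 nFPKM. The stellate cell sum was 44.2, 27.9 and 23.7 in KPF and 21.5, 21.3 and 25.0 nFPKM in WPF, also highest in KPF 1. By the call rule given below, 1 of its 5 markers, *Reln*, was higher, against 5.83% of all tested genes. That call was lost without KPF 1, WPF 2 or WPF 4 (unadjusted p = 0.0772, 0.0843 and 0.0666 in edgeR's test). It was also lost with library totals in place of TMM (unadjusted p = 0.0872), with a replicate block and with limma. The part of these cell types in the results below was not tested, and in whole liver fewer cells of a type and less RNA per cell cannot be told apart. Values without KPF 2 are given beside single results and together for the nuclear members.

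Messenger RNA of the 13 mitochondrially encoded members took 33.4%, 32.0% and 34.2% of all counted reads in KPF and 28.3%, 25.2% and 18.1% in WPF, so that every KPF library was above every WPF library. The 84 nuclear members together took 0.628%, 1.22% and 0.676% in KPF and 1.05%, 1.001% and 0.910% in WPF. KPF 1 and KPF 3 were thus below all WPF libraries and KPF 2 above them. For comparison, the single nuclear gene *Alb*, which encodes albumin, took 6.38%, 6.78% and 8.11% in KPF and 13.2%, 9.92% and 10.5% in WPF. In every KPF library the gene with the most reads was *mt-Co1*, and in every WPF library it was *Alb*.

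**Figure D1:**
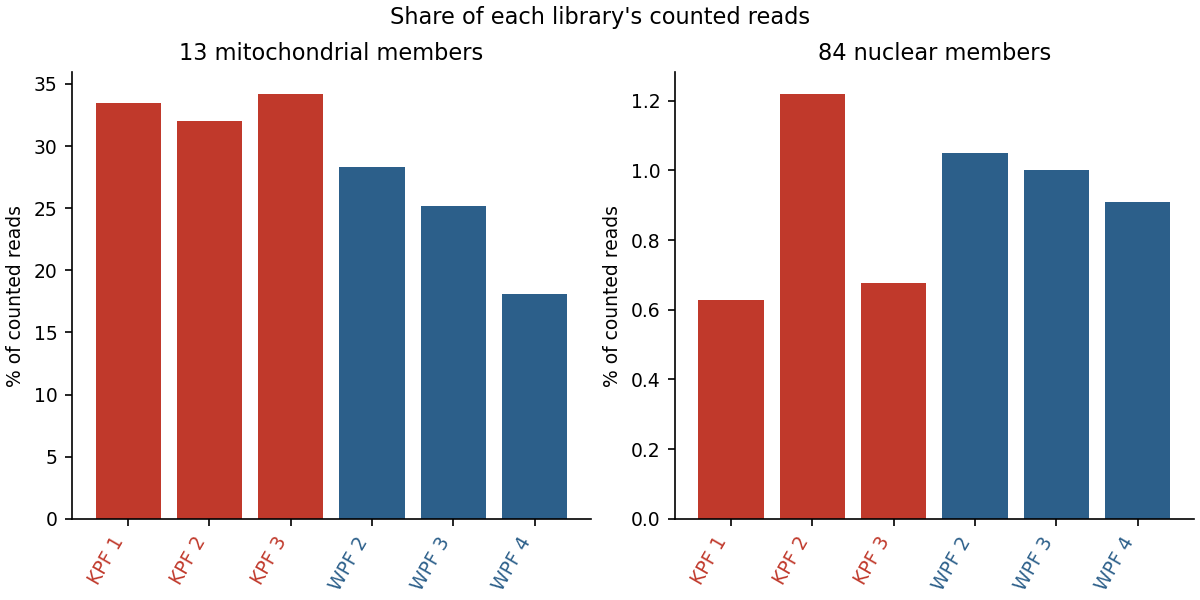
Share of each library's counted reads (y axes, in %, from 0) on the 13 mitochondrially encoded members (left) and on the 84 nuclear members (right), 1 bar a library, KPF in red and WPF in blue. On the left the KPF bars lie between 32.0% and 34.2% and the WPF bars between 18.1% and 28.3%, and on the right KPF 2 is the highest bar at 1.22%.

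For each of the 10866 genes the groups were compared by the quasi-likelihood test of edgeR. A gene was called when its unadjusted p was under 0.05 and it differed at least 1.5-fold. By this rule 5 members were higher in KPF, against 5.83% of all tested genes, and 3 were lower, against 3.98%. The 5 higher members were *mt-Co2*, *mt-Atp8* and the muscle forms *Cox6a2*, *Cox7a1* and *Cox8b*, and the 3 lower members were *Ndufa1*, *Cox6a1* and *Cox8a*. All 8 also make up the members with an unadjusted p under 0.05, for which the shares of all genes were 6.29% higher and 4.55% lower. Groups did not overlap for 6 members with every KPF library above every WPF library, against 7.55% of all genes, and for 8 with every KPF library below, against 8.15%. The 3 muscle forms reached the FPKM minimum only through KPF 2, and without them 2 members were called higher and 3 lower. *Cox6a2* is also among the 6 separated members, on 5 and 2 reads in KPF 1 and KPF 3 against 2, 1 and 0 reads in WPF. With the muscle forms counted, the called and the separated members were about as frequent as among all genes. No member had an adjusted p under 0.05 (smallest 0.430), nor had any gene in this test (smallest 0.397, with 1177 genes at an unadjusted p under 0.05). Of all called genes 59.4% were higher in KPF, but 33.7% when libraries were scaled by their totals alone and 30.5% by limma on log2(FPKM + 1).

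The medians of the 2 genomes lay on opposite sides of 0. The median log2 fold change was 0.57 over the 13 mitochondrial members, 12 of them positive, and -0.19 over the 84 nuclear members, 56 of them negative, beside 0.02 over all tested genes. Under every other scaling and test tried, 12 or 13 mitochondrial members were positive, and 55 to 65 nuclear members were negative with all 6 libraries. The mean log2 level of the mitochondrial members minus that of the nuclear members was 5.66, 4.38 and 5.602 in KPF and 4.76, 4.56 and 4.02 in WPF. This difference depends little on the scaling of a library. KPF exceeded WPF by 0.77 on average, but KPF 2, at 4.38, fell below WPF 2 and WPF 3. Without KPF 2 this difference between the groups was 1.19. Restricted to the 7 most abundant mitochondrial members and to the 81 nuclear members without *Cox6a2*, *Cox7a1* and *Cox8b*, the difference was 9.69, 8.68 and 9.51 in KPF and 8.67, 8.52 and 8.05 in WPF, and every KPF library, KPF 2 only just, was above every WPF library.

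The mitochondrially encoded members fall into a high and a low set. *mt-Cytb*, *mt-Co1*, *mt-Nd1*, *mt-Nd2*, *mt-Nd4*, *mt-Nd6* and *mt-Nd5* had between 4845 and 85370 nFPKM in every library, while *mt-Co2*, *mt-Co3*, *mt-Atp6*, *mt-Nd3*, *mt-Atp8* and *mt-Nd4l* had between 13.6 and 1749 nFPKM. Of the low set, 5 have a nearly exact nuclear copy in the annotation: at least 98% identical over 100 bases or more, copies cover 98.99% to 99.87% of *mt-Co2*, *mt-Co3*, *mt-Atp6*, *mt-Nd3* and *mt-Nd4l*. Of the high set, copies cover 31.3% of *mt-Co1*, 63.6% of *mt-Nd4* and no part of the other 5. *mt-Atp8* has no copy among the annotated transcripts and overlaps *mt-Atp6* on the mitochondrial DNA. Only annotated transcripts were searched. A copy of *mt-Atp8* outside them, for instance between the copies of *mt-Atp6* and *mt-Co2*, would have been missed. The copies *Gm29216*, *Gm28661*, *Gm10925*, *Gm28437*, *Gm28438*, *Gm10222* and *Gm28439* lie beside one another on the minus strand of chromosome 1 of GRCm38 (between positions 24611535 and 24616197), and the authors' table counted reads on all 7. The opening of the *mt-Co2* mRNA (chrM:7013-7696, plus strand, GRCm38) and of its copy *Gm28661* (chr1:24614885-24615565, minus strand) are shown because they are the same in every letter, as are all 681 aligned bases, so that a read from one cannot be told from a read of the other:
mt-Co2, bases 1 to 90: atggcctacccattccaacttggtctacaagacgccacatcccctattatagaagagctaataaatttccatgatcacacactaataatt
Gm28661, bases 1 to 90: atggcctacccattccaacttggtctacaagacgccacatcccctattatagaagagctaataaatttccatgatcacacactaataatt
The stretch of *mt-Co1* (chrM:5328-6872, plus strand) that is copied in *Gm29216* (chr1:24615706-24616197, minus strand) is shown because it holds the only difference in the 483 bases they share, marked by the capital:
mt-Co1, bases 1063 to 1152: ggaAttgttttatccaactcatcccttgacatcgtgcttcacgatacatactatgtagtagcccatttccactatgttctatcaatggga
Gm29216, bases 10 to 99: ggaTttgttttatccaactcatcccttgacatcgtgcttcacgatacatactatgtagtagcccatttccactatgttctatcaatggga

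Before reads of nuclear copies were added, all 13 mitochondrial members were lowest in WPF 4, and 9 were highest in KPF 3. With the reads of its copy *Gm10222* added, *mt-Nd4l* was instead highest in WPF 4, at 61.3 nFPKM, with KPF 3 next at 60.3 nFPKM. Between 47.9% and 77.9% of the reads of that pair were counted on the copy. *mt-Co1*, which holds the heme and copper centre where oxygen is reduced, stood at 62460, 60030 and 79930 in KPF and at 56180, 40580 and 34230 nFPKM in WPF. Every KPF library was above every WPF library, but the step from WPF 2 to KPF 2 was small beside the spread of WPF, and the log2 fold change was 0.63 (SE 0.35, unadjusted p = 0.116, adjusted p = 0.549). *mt-Cytb*, the electron-carrying core of complex III, stood at 70670, 63150 and 85370 in KPF and at 70940, 48680 and 28020 nFPKM in WPF, so WPF 2 lay within the KPF range (log2 fold change 0.57, SE 0.42, unadjusted p = 0.212).

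The 7 ND proteins form the membrane arm of complex I. *mt-Nd6* stood at 23660, 21480 and 24720 in KPF and at 19420, 12610 and 7667 nFPKM in WPF, with no overlap of the groups (log2 fold change 0.82, SE 0.39, unadjusted p = 0.0695). It is the member encoded on the opposite strand of the mitochondrial DNA, and since the strand of the libraries is not stated, its reads cannot be told apart from those of RNA antisense to it. *mt-Nd5* stood at 8761, 9698 and 13470 in KPF and at 8871, 6366 and 4845 nFPKM in WPF and WPF 2 reached KPF 1 (log2 fold change 0.67, SE 0.36, unadjusted p = 0.0992). *mt-Nd2* stood at 36870, 44750 and 37420 in KPF and at 37070, 27180 and 18590 nFPKM in WPF (log2 fold change 0.52, SE 0.36, unadjusted p = 0.185). *mt-Nd4* stood at 38520, 30880 and 31930 in KPF and at 33480, 23420 and 12630 nFPKM in WPF (log2 fold change 0.54, SE 0.42, unadjusted p = 0.229). *mt-Nd1* stood at 44160, 39950 and 38810 in KPF and at 39200, 35900 and 19790 nFPKM in WPF (log2 fold change 0.37, SE 0.36, unadjusted p = 0.332). In these 3 genes WPF 2 lay within the KPF range or next to it, while WPF 4 had the fewest reads per length by a wide margin. *mt-Nd3* stood at 98, 92.0 and 108 in KPF and at 91.6, 79.7 and 32.3 nFPKM in WPF, separated only by the gap between KPF 2 and WPF 2 (log2 fold change 0.55, SE 0.36, unadjusted p = 0.169). With the reads of its copy *Gm28438* added, the level was 1132, 929.5 and 529.4 in KPF and 832.3, 709.7 and 252.2 nFPKM in WPF. The groups then overlapped (log2 fold change 0.53, SE 0.48, unadjusted p = 0.304). Between 79.6% and 91.4% of the reads of this pair were counted on the copy. *mt-Nd4l* stood at 16.0, 17.3 and 23.3 in KPF and at 16.9, 17.7 and 13.6 nFPKM in WPF with 50 to 75 reads per library (log2 fold change 0.23, SE 0.29, unadjusted p = 0.450).

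*mt-Co2* receives the electrons from cytochrome c. It stood at 922, 684 and 1749 in KPF and at 741, 484 and 297 nFPKM in WPF, so KPF 3 was well above all others and KPF 2 was below WPF 2, and the log2 fold change was 1.14 (SE 0.46, unadjusted p = 0.0411, adjusted p = 0.453), which passed the call rule. It no longer passed when KPF 1, KPF 3, WPF 3 or WPF 4 was left out, at log2 fold changes of 1.26, 0.66, 1.11 and 0.86 (unadjusted p = 0.0501, 0.168, 0.103 and 0.114). With all 6 libraries it missed the threshold when the trend on exonic length was removed (1.04, unadjusted p = 0.0519). With the reads of *Gm28661* added, the level was 2770, 2106 and 2703 in KPF and 1314, 1461 and 489.7 nFPKM in WPF and every KPF library was above every WPF library (log2 fold change 1.22, SE 0.43, unadjusted p = 0.0228). Between 35.5% and 67.6% of the reads of this pair were counted on the copy. *mt-Atp8*, a small membrane subunit of complex V, stood at 35.0, 49.4 and 53.7 in KPF and at 29.2, 27.2 and 18.4 nFPKM in WPF, without overlap, on 64 to 114 reads per library. It was the other mitochondrial member past the call rule, and the log2 fold change was 0.89 (SE 0.30, unadjusted p = 0.0198, adjusted p = 0.430). It no longer passed without KPF 2, KPF 3 or WPF 4, at 0.82, 0.76 and 0.70 (unadjusted p = 0.0502, 0.0598 and 0.0611). Its partner *mt-Atp6*, which lines the proton channel, stood at 466, 348 and 497 in KPF and at 457, 262 and 151 nFPKM in WPF (log2 fold change 0.59, SE 0.41, unadjusted p = 0.189). With *Gm10925* added it stood at 1311, 786 and 1558 in KPF and at 881, 718 and 318 nFPKM in WPF, and WPF 2 still lay between KPF 1 and KPF 2 (log2 fold change 0.93, unadjusted p = 0.0680).

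*mt-Co3* was the mitochondrial member with a negative value. It stood at 481, 290.4 and 359 in KPF and at 991, 290.2 and 126 nFPKM in WPF, highest in WPF 2 and lowest in WPF 4 (log2 fold change -0.32, SE 0.67, unadjusted p = 0.652). Its sign depended on the handling of 1 library and of the copy, since the log2 fold change was 0.86 without WPF 2, and 0.18 with the reads of *Gm28437* added. The median over the 13 members also moved with the library left out, and it was 0.28 without WPF 4, 0.91 without WPF 2 and 0.66 without KPF 2.

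**Figure D2:**
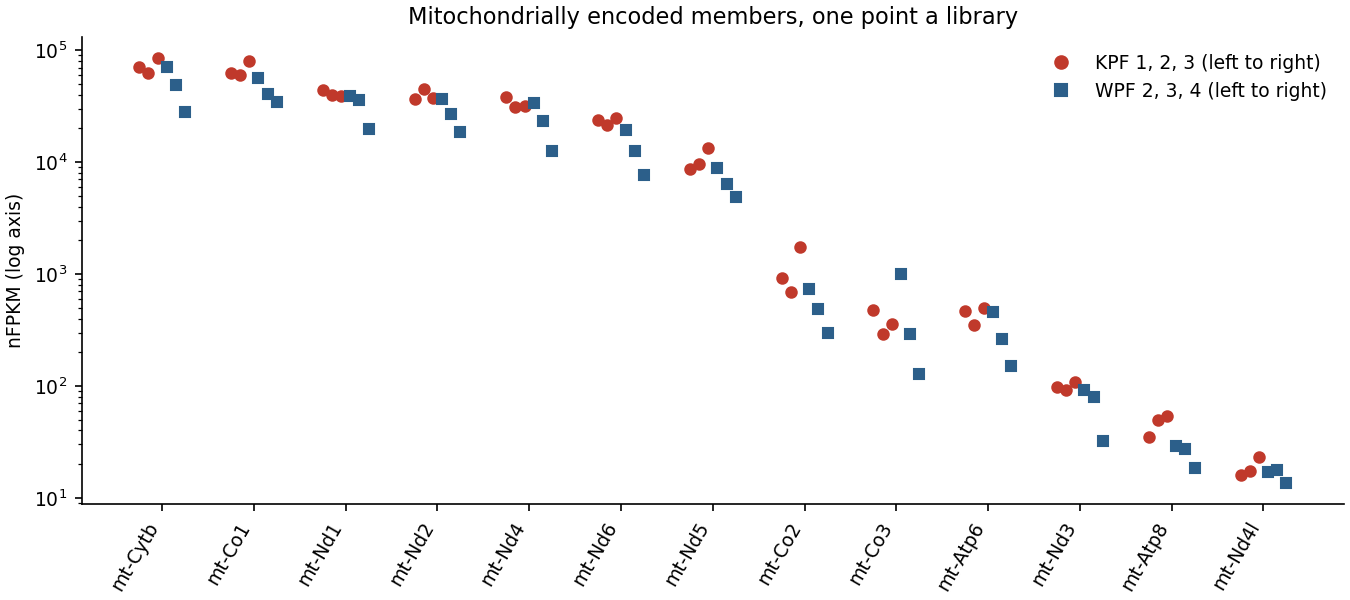
Level of the 13 mitochondrially encoded members (x axis, ordered by mean) in nFPKM on a log axis, 1 point a library, KPF as red circles and WPF as blue squares, each in replicate order from left to right. The 7 genes at the left form the high set and the 6 at the right the low set, and WPF 4 is the lowest point of every gene. Reads of nuclear copies are not included.

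Among the nuclear members, KPF 1 was low and KPF 2 high, with WPF 2 next to it. Leaving out the 3 muscle forms, KPF 1 was the lowest library for 55 of 81 nuclear members and WPF 4 for 14, and KPF 2 was the highest for 48 and WPF 2 for 28. After subtracting each gene's mean log2 level, the median over the 81 was -0.58, 0.45 and -0.24 in KPF and 0.40, 0.07 and -0.12 in WPF. In complex I this median was -0.46, 0.50 and -0.26 in KPF and 0.33, 0.04 and -0.20 in WPF, and in complex V it was -0.71, 0.47 and -0.25 in KPF and 0.47, 0.07 and 0.01 in WPF. In complexes II, III and IV KPF 2 stood lower against WPF 2, with 0.26, 0.22 and 0.26 in KPF 2 and 0.32, 0.50 and 0.44 in WPF 2. KPF 1 had the lowest median in each of the 5 complexes, and either KPF 2 or WPF 2 the highest, whereas the lowest library of the mitochondrial members was WPF 4.

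**Figure D3:**
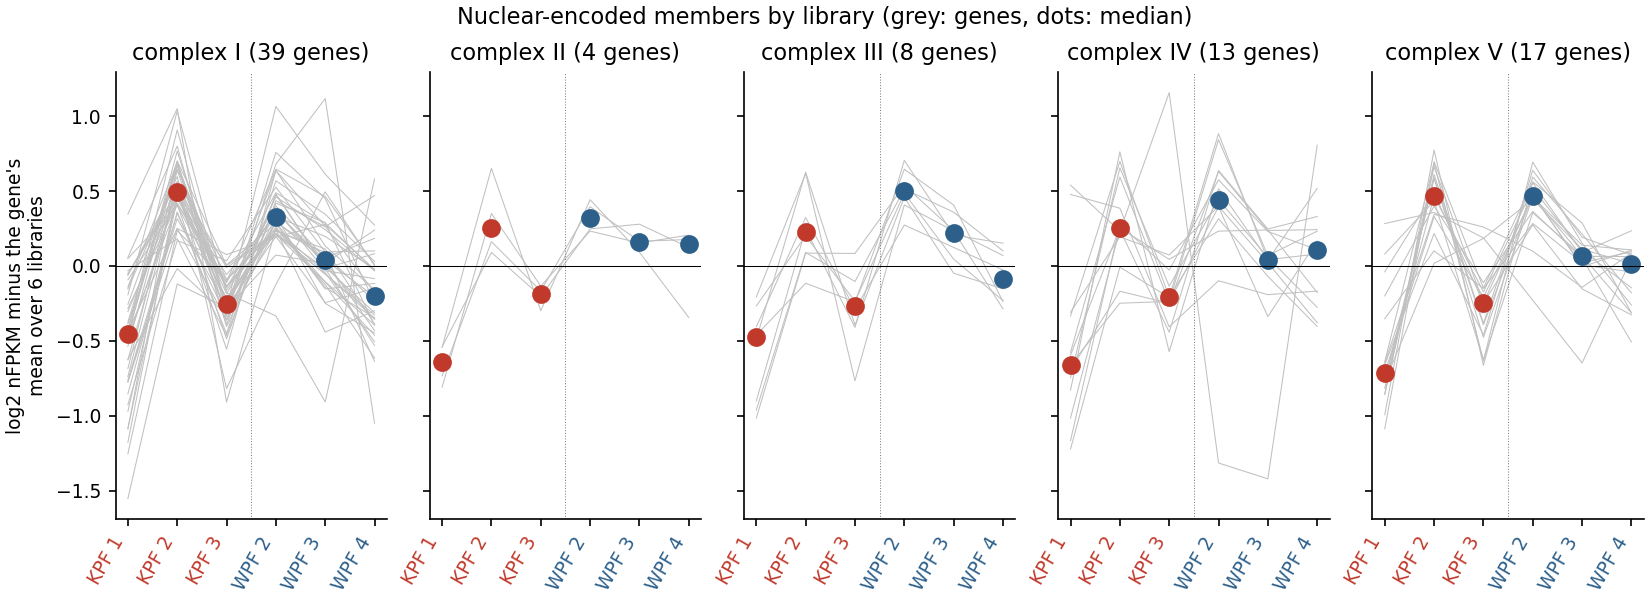
Nuclear members by complex and library: log2 nFPKM minus the gene's mean over the 6 libraries (y axis) for each library (x axis, KPF red, WPF blue), with a grey line for each gene and a dot for the median. The muscle forms Cox6a2, Cox7a1 and Cox8b are left out, and the median of each complex is lowest in KPF 1.

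Of the 39 nuclear members of complex I, 21 were negative and 18 positive, with a median log2 fold change of -0.05, and 1 passed the call rule. This was *Ndufa1*, a small membrane-anchored accessory subunit, which stood at 33.0, 89.1 and 79.8 in KPF and at 203, 148 and 117 nFPKM in WPF. The groups did not overlap, and the log2 fold change was -1.21 (SE 0.40, unadjusted p = 0.0166, adjusted p = 0.430). Without KPF 2 the log2 fold change was -1.48 (unadjusted p = 0.0103), and without WPF 2 it was -0.98 (unadjusted p = 0.0614). The core subunits, which carry the electrons through the peripheral arm, showed no such separation. *Ndufv1*, which binds NADH and the flavin, stood at 14.8, 32.2 and 15.0 in KPF and at 24.3, 20.4 and 17.2 nFPKM in WPF (log2 fold change 0.00, SE 0.35, unadjusted p = 0.997). Its neighbour in the NADH module, *Ndufv2*, stood at 40.6, 78.6 and 52.7 in KPF and at 61.6, 51.1 and 42.3 nFPKM in WPF (log2 fold change 0.15, SE 0.31, unadjusted p = 0.640). *Ndufs1*, the largest iron-sulfur subunit, stood at 2.94, 6.00 and 5.31 in KPF and at 5.76, 6.11 and 4.95 nFPKM in WPF (log2 fold change -0.24, SE 0.29, unadjusted p = 0.430). In all 3 KPF 1 was the lowest library, and KPF 2 was the highest or, in *Ndufs1*, just below WPF 3.

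KPF 2 was also the highest library in the other core subunits given here. *Ndufs3* stood at 31.4, 52.5 and 23.5 in KPF and at 35.7, 22.2 and 24.5 nFPKM in WPF (log2 fold change 0.38, SE 0.35, unadjusted p = 0.304), and copies such as *Gm12251* share 75.7% of its transcript. *Ndufs8*, an iron-sulfur subunit, stood at 99.2, 141 and 96.5 in KPF and at 123, 102 and 83.0 nFPKM in WPF (log2 fold change 0.13, SE 0.27, unadjusted p = 0.639). *Ndufs7*, which carries the last iron-sulfur cluster before ubiquinone, had the highest value among the nuclear members of complex I. It stood at 54.7, 89.1 and 22.9 in KPF and at 51.1, 39.4 and 28.1 nFPKM in WPF, ranging from the lowest library, KPF 3, to the highest, KPF 2, within 1 group (log2 fold change 0.49, SE 0.48, unadjusted p = 0.335). After *Ndufa1* the lowest log2 fold changes among the nuclear members of this complex were those of *Ndufa6* at -0.68 (unadjusted p = 0.0684) and *Ndufs5* at -0.64 (unadjusted p = 0.133). Neither gene passed the test with 6 libraries.

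All 4 genes of complex II, succinate dehydrogenase, were negative, with a median of -0.37, and none was called. The membrane anchors *Sdhc* and *Sdhd* were separated. *Sdhc* stood at 11.1, 20.6 and 16.4 in KPF and at 24.2, 20.6 and 20.8 nFPKM in WPF (log2 fold change -0.45, SE 0.27, unadjusted p = 0.133). *Sdhd* stood at 22.3, 34.5 and 28.2 in KPF and at 38.5, 39.3 and 35.3 nFPKM in WPF (log2 fold change -0.41, SE 0.22, unadjusted p = 0.0982). In both, the step between the groups was small beside the spread within KPF. *Sdha*, the flavoprotein that oxidizes succinate in the citric acid cycle, stood at 8.27, 18.5 and 13.2 in KPF and at 17.0, 16.1 and 16.7 nFPKM in WPF, so KPF 2 was above all WPF libraries (log2 fold change -0.32, SE 0.30, unadjusted p = 0.323). *Sdhb*, the iron-sulfur subunit, stood at 38.1, 87.3 and 45.2 in KPF and at 75.5, 59.2 and 43.8 nFPKM in WPF (log2 fold change -0.07, SE 0.38, unadjusted p = 0.867).

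All 8 nuclear members of complex III were negative too, between -0.65 and -0.10 with a median of -0.35, and none was called. The lowest was *Uqcr11*, a small accessory subunit, at 91.2, 202 and 128 in KPF and at 278, 197 and 189 nFPKM in WPF (log2 fold change -0.65, SE 0.34, unadjusted p = 0.0931). The highest was *Uqcrh*, the hinge protein beside cytochrome c1, at 47.4, 103 and 50.6 in KPF and at 91.5, 64.4 and 59.9 nFPKM in WPF (log2 fold change -0.10, SE 0.36, unadjusted p = 0.781). The core proteins differed between themselves. *Uqcrc2* stood at 6.50, 13.5 and 11.8 in KPF and at 18.1, 16.2 and 13.6 nFPKM in WPF, with KPF 2 just under WPF 4 and no overlap (log2 fold change -0.59, SE 0.29, unadjusted p = 0.0807). *Uqcrc1* stood at 19.0, 33.6 and 12.9 in KPF and at 29.1, 25.8 and 18.0 nFPKM in WPF and overlapped widely (log2 fold change -0.15, SE 0.38, unadjusted p = 0.701). *Uqcrfs1*, the Rieske iron-sulfur protein, stood at 95.2, 121 and 111 in KPF and at 205, 174 and 111 nFPKM in WPF, WPF 4 being level with KPF 3 (log2 fold change -0.58, SE 0.29, unadjusted p = 0.0810).

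Complex IV held the called nuclear members of both directions. The liver forms *Cox6a1*, *Cox8a* and *Cox7a2* were lower in every KPF library, whereas the muscle forms were high in a single KPF library. *Cox6a1* stood at 115, 153 and 154 in KPF and at 326, 190.3 and 213 nFPKM in WPF, and the log2 fold change was -0.79 (SE 0.29, unadjusted p = 0.0263, adjusted p = 0.430). *Cox8a* stood at 52.9, 76.2 and 72.0 in KPF and at 133, 101 and 101 nFPKM in WPF, and the log2 fold change was -0.73 (SE 0.24, unadjusted p = 0.0153, adjusted p = 0.430). Both passed the call rule, and KPF 2, the library with muscle RNA, was close to KPF 3 in both. *Cox7a2* stood at 16.4, 39.1 and 24.3 in KPF and at 51.4, 39.2 and 41.6 nFPKM in WPF, KPF 2 just below WPF 3, and missed the threshold with 6 libraries (log2 fold change -0.73, SE 0.32, unadjusted p = 0.0564). Without KPF 2 the log2 fold changes of *Cox6a1*, *Cox8a* and *Cox7a2* were -0.86, -0.84 and -1.12 (unadjusted p = 0.0333, 0.0156 and 0.00365). Without WPF 2 neither *Cox6a1* nor *Cox8a* was called, at -0.52 and -0.59 (unadjusted p = 0.115 and 0.0638), and *Cox6a1* was not called without KPF 1 either, at -0.66 (unadjusted p = 0.0788).

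The muscle forms had next to no reads outside KPF 2. *Cox6a2*, the partner of *Cox6a1*, had 5, 2112 and 2 reads in KPF and 2, 1 and 0 reads in WPF, which is 0.700, 275 and 0.283 in KPF and 0.254, 0.103 and 0 nFPKM in WPF. *Cox7a1*, the partner of *Cox7a2*, had 11, 1153 and 5 reads in KPF and 17, 16 and 16 reads in WPF, or 1.96, 191 and 0.898 in KPF and 2.75, 2.10 and 1.75 nFPKM in WPF. *Cox8b*, the partner of *Cox8a*, had 3, 1506 and 1 reads in KPF and 5, 8 and 0 reads in WPF, or 0.794, 370 and 0.267 in KPF and 1.20, 1.56 and 0 nFPKM in WPF. In KPF 2 each muscle form thus exceeded its liver partner, and in the other 5 libraries it was a small fraction of it. These members reached the FPKM minimum only through KPF 2, and their calls rest on that library. Since *Cox6a2* and *Cox8b* had 0 reads in a WPF library, the size of their fitted values depends on the prior count. The fitted log2 fold changes of *Cox6a2*, *Cox7a1* and *Cox8b*, 9.59, 4.88 and 7.11 (unadjusted p = 0.0121, 0.0290 and 0.0226), fell to 2.06, -0.61 and -0.72 without KPF 2 (unadjusted p = 0.150, 0.352 and 0.627). *Cox7a1* and *Cox8b* missed the threshold as well when any 1 WPF library was left out, with an unadjusted p between 0.0565 and 0.0782. Brown fat expresses *Cox7a1* and *Cox8b* as well. Of the other brown fat markers listed, *Ucp1*, its uncoupling protein, had 1, 6 and 0 reads in KPF and 0, 0 and 2 in WPF. *Cidea* had 7, 12 and 1 reads in KPF and 0 in each WPF library, and *Dio2* had 4, 3 and 0 reads in KPF and 0 in each WPF library. *Elovl3* had 29, 17 and 3 reads in KPF and 24, 5 and 6 in WPF.

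**Figure D4:**
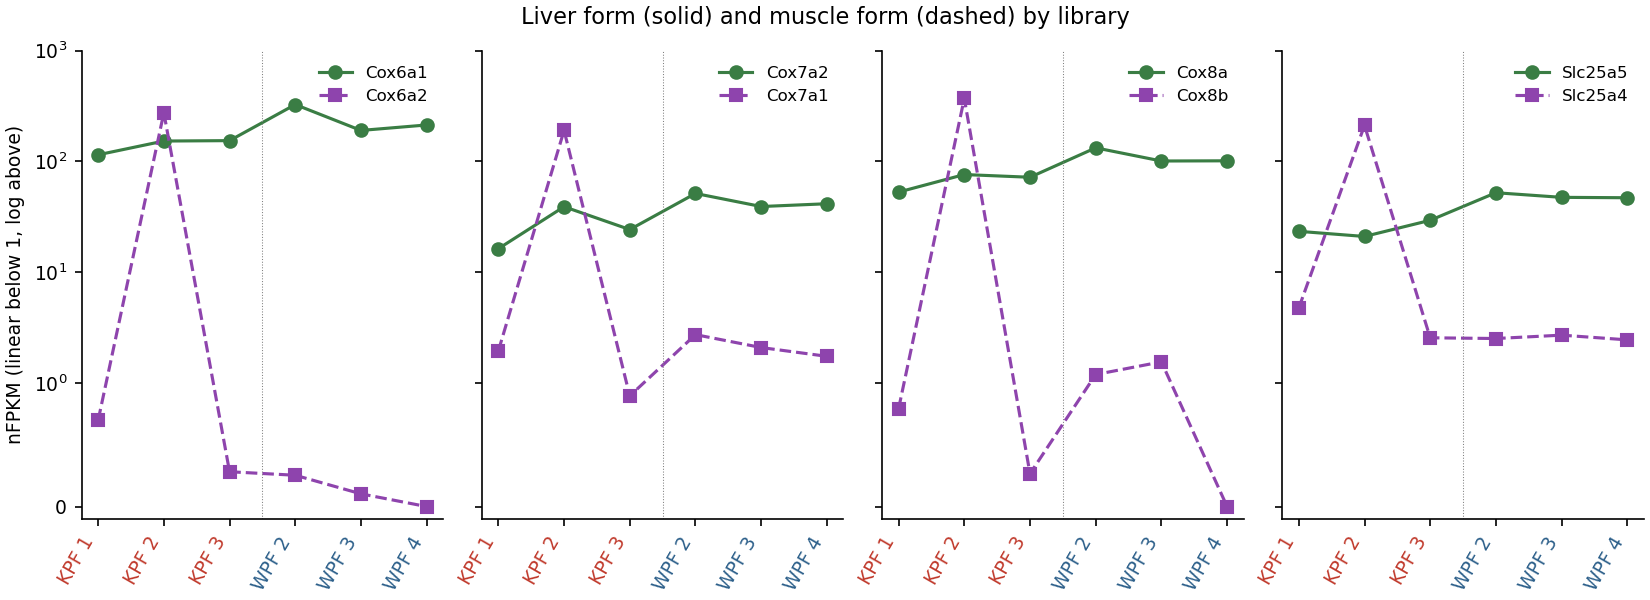
Levels of the liver form (solid green line) and the muscle form (dashed purple line) of Cox6a, Cox7a, Cox8 and the ADP/ATP carrier in each library, in nFPKM on an axis that is linear below 1 and logarithmic above. The muscle forms reach 191 to 370 nFPKM in KPF 2 and stay under 5 nFPKM elsewhere, and of the liver forms Cox6a1, Cox7a2, Cox8a and Slc25a5 each lie lower in all KPF libraries than in all WPF libraries.

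Of the remaining nuclear members of complex IV, *Cox6c2* was separated between the groups and the others overlapped. *Cox4i1*, the largest nuclear subunit, stood at 89.5, 269.7 and 107 in KPF and at 227, 164 and 168 nFPKM in WPF, with KPF 2 the highest and KPF 1 and KPF 3 the lowest (log2 fold change -0.26, SE 0.44, unadjusted p = 0.570). Without KPF 2 its log2 fold change was -0.93 (unadjusted p = 0.0138). *Cox5a* stood at 3.63, 8.17 and 4.57 in KPF and at 7.12, 4.28 and 6.08 nFPKM in WPF (log2 fold change -0.09, SE 0.35, unadjusted p = 0.801). *Cox5b* stood at 75.9, 200.5 and 116 in KPF and at 173, 132 and 105 nFPKM in WPF (log2 fold change -0.07, SE 0.39, unadjusted p = 0.872), and both overlapped. *Cox6b1*, which faces the intermembrane space, stood at 261, 535 and 285 in KPF and at 410, 314 and 249 nFPKM in WPF (log2 fold change 0.15, SE 0.36, unadjusted p = 0.680). *Cox6b2*, a form best known from testis, was near the FPKM minimum at 1.98, 1.60 and 3.04 in KPF and at 0.546, 0.507 and 2.38 nFPKM in WPF on 7 to 45 reads per library (log2 fold change 0.91, SE 0.67, unadjusted p = 0.209). *Cox6c2*, a paralog of *Cox6c*, had the lowest log2 fold change of the complex at -0.91 (unadjusted p = 0.0630). It stood at 6.60, 15.3 and 13.3 in KPF and at 28.4, 15.8 and 22.1 nFPKM in WPF, without overlap. *Cox6c* itself stood at 28.3, 77.2 and 62.4 in KPF and at 94.7, 74.6 and 68.5 nFPKM in WPF (log2 fold change -0.50, SE 0.38, unadjusted p = 0.229). The log2 fold changes of *Cox7b*, *Cox7c* and *Cox7a2l* were -0.17, -0.05 and 0.36 (unadjusted p = 0.580, 0.877 and 0.220).

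In complex V, 13 of 17 members were negative, the median was -0.26 and none was called. The catalytic head was split. *Atp5a1*, the alpha subunit, stood at 28.3, 74.9 and 35.9 in KPF and at 68.6, 54.9 and 53.7 nFPKM in WPF (log2 fold change -0.35, SE 0.39, unadjusted p = 0.393). *Atp5c1*, the gamma subunit of the rotating stalk, stood at 38.3, 98.5 and 49.9 in KPF and at 91.3, 65.3 and 70.5 nFPKM in WPF (log2 fold change -0.28, SE 0.38, unadjusted p = 0.478). *Atp5b*, the beta subunit that makes ATP, stood at 36.2, 52.3 and 31.4 in KPF and at 45.1, 33.5 and 29.7 nFPKM in WPF (log2 fold change 0.15, SE 0.29, unadjusted p = 0.628). In *Atp5a1* and *Atp5c1* KPF 1 and KPF 3 were below all WPF libraries and KPF 2 above them, whereas in *Atp5b* KPF 1 and KPF 3 lay within the WPF range. The lowest log2 fold change was that of *Atp5mpl*, a small membrane subunit, at 21.7, 39.8 and 24.9 in KPF and at 53.4, 39.1 and 36.1 nFPKM in WPF (log2 fold change -0.57, SE 0.29, unadjusted p = 0.0866). The highest was that of *Atp5s*, the coupling factor that is no structural subunit, at 4.53, 4.77 and 4.24 in KPF and at 3.18, 2.38 and 3.85 nFPKM in WPF, without overlap (log2 fold change 0.52, SE 0.27, unadjusted p = 0.0853). The mature ring subunit c is the same protein from *Atp5g1*, *Atp5g2* and *Atp5g3*, whose log2 fold changes were -0.30, 0.03 and -0.38.

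With KPF 2 left out, KPF 1 and KPF 3 were low against WPF in nearly all nuclear members. Of the 84, 79 were then negative and the median log2 fold change was -0.57. By complex the median was -0.45 in complex I, -0.61 in II, -0.64 in III, -0.57 in IV and -0.66 in V. By the call rule 28 nuclear members were lower, 12 of complex I, 2 of complex II, 2 of complex III, 5 of complex IV and 7 of complex V, and none was higher, while over all members 28 of 97 were lower against 4.48% of all genes and 1, *mt-Co2*, was higher against 5.06%. At an unadjusted p under 0.05 the counts were the same, 28 and 1, against 4.64% and 5.27%. In 45 members every remaining KPF library was below every WPF library, and in 8 above, against 13.7% of all genes in each direction. The smallest unadjusted p were those of *Ndufa4* at -1.19 (unadjusted p = 0.00304), *Atp5g3* at -1.13 (unadjusted p = 0.00351) and *Cox7a2* at -1.12 (unadjusted p = 0.00365), and no adjusted p was under 0.05 (smallest 0.413). Of the members given above, *Ndufa6*, *Ndufs5*, *Sdhc*, *Sdhd*, *Uqcr11*, *Uqcrc2*, *Cox4i1*, *Cox6c2*, *Atp5a1*, *Atp5c1*, *Atp5g1* and *Atp5mpl* were also called lower without KPF 2 and not with it. Their log2 fold changes without it lay between -1.15 and -0.59. *Ndufa4* shows how much the single library decides: it stood at 12.3, 39.2 and 19.8 in KPF and at 37.6, 33.3 and 38.5 nFPKM in WPF. The other KPF libraries pulled the opposite way. Without KPF 1 the median over the nuclear members was 0.01, with 40 of 84 negative, and without WPF 2 it was -0.04 with no member called lower, so that the lower nuclear values lay in KPF 1 and KPF 3, most of all in KPF 1, and not in KPF 2.

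**Figure D5:**
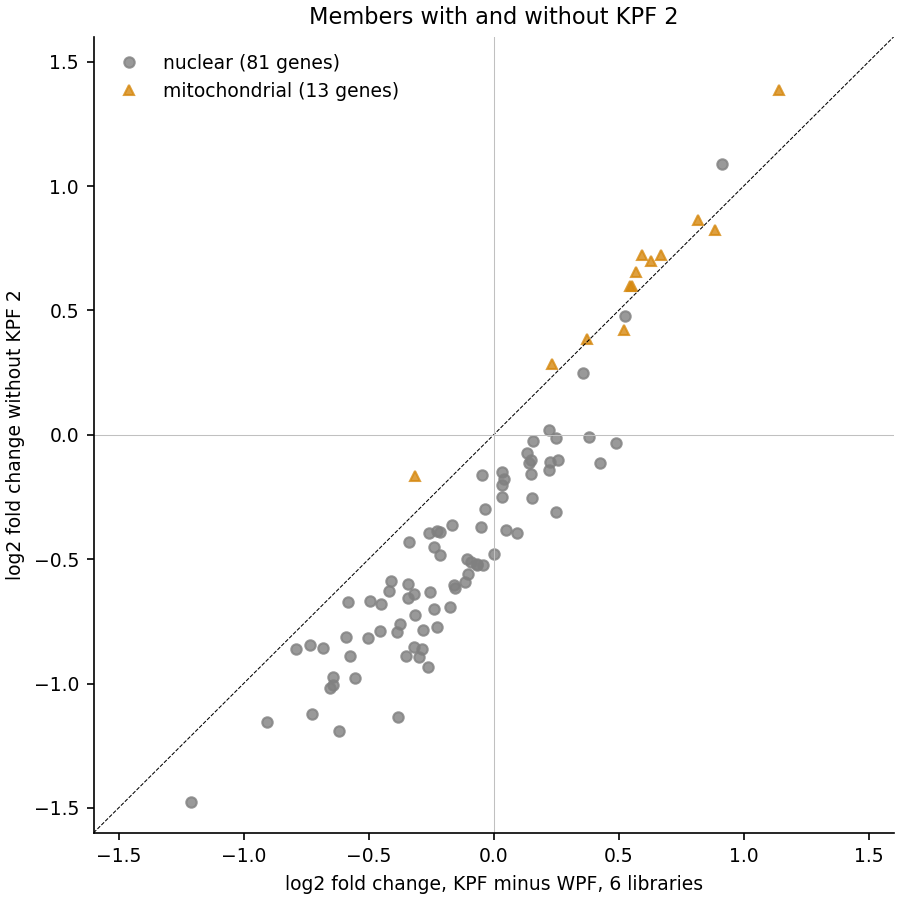
Log2 fold change of KPF against WPF with all 6 libraries (x axis) and without KPF 2 (y axis), 1 point a gene, 81 nuclear members in grey and 13 mitochondrial members in orange. The muscle forms Cox6a2, Cox7a1 and Cox8b, at 4.88 to 9.59 on the x axis, are left out, nearly all grey points lie below the dashed line of equal values, and the medians go from -0.22 to -0.56 for the nuclear members shown and from 0.57 to 0.66 for the mitochondrial members.

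Genes that serve these complexes were listed by function, and their calls are read beside 5.83% of all tested genes called higher and 3.98% called lower. Of 14 tested assembly factors of complex I, 1 was called, *Ndufaf3*, at 10.4, 10.2 and 6.99 in KPF and at 4.999, 2.86 and 3.90 nFPKM in WPF. The groups were separated (log2 fold change 1.23, SE 0.29, unadjusted p = 0.00296), and the value was 1.15 without KPF 2. Among 5 assembly factors of complex III, *Bcs1l*, which inserts the Rieske protein, was called higher at 6.17, 6.29 and 5.65 in KPF and at 3.90, 3.97 and 3.85 nFPKM in WPF (log2 fold change 0.63, SE 0.20, unadjusted p = 0.0141). That call was lost with library totals in place of TMM (0.50, unadjusted p = 0.0835), with no FPKM minimum (0.56, unadjusted p = 0.0667) and with both forms of limma (unadjusted p = 0.0542 and 0.0591). Among 17 assembly factors of complex IV, *Cox16*, which acts on the copper site of *mt-Co2*, was called lower at 0.838, 0.896 and 1.59 in KPF and at 3.16, 2.30 and 2.34 nFPKM in WPF (log2 fold change -1.23, SE 0.34, unadjusted p = 0.00691). None of the 4 tested genes for the assembly of complex II and none of the 3 for complex V and its inhibitor was called.

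Of the genes that make and read mitochondrial DNA 0 of 24 were called, with a median log2 fold change of 0.01, and likewise 0 of 16 genes of mitochondrial membranes and import were called, with a median of 0.02. Among 10 tested regulators of mitochondrial biogenesis, *Sirt1*, a deacetylase that acts on PGC-1alpha, was called lower at 1.11, 1.69 and 1.82 in KPF and at 2.01, 2.66 and 2.88 nFPKM in WPF (log2 fold change -0.71, SE 0.27, unadjusted p = 0.0339). Of 14 genes of the citric acid cycle, *Cs*, citrate synthase, was called lower at 8.22, 16.4 and 9.19 in KPF and at 26.1, 32.1 and 12.8 nFPKM in WPF, KPF 2 exceeding WPF 4 (log2 fold change -1.07, SE 0.41, unadjusted p = 0.0338). Without KPF 1, *Sirt1* was at -0.52 (unadjusted p = 0.0907) and *Cs* at -0.89 (unadjusted p = 0.101), and neither was called, nor was *Sirt1* without WPF 3 or WPF 4 (unadjusted p = 0.0931 and 0.0958) or *Cs* without KPF 3, WPF 2 or WPF 3 (unadjusted p = 0.0981, 0.0850 and 0.122). The remaining 6 subunit and carrier genes outside the symbol rule had no call. Of these, *Cyc1* stood at 22.9, 52.8 and 26.3 in KPF and at 46.6, 46.1 and 40.0 nFPKM in WPF (log2 fold change -0.38, SE 0.34, unadjusted p = 0.301).

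The carriers that exchange ADP for ATP across the inner membrane repeated the pattern of the complex IV isoforms. *Slc25a5*, the form of most tissues, stood at 23.4, 21.1 and 29.5 in KPF and at 52.2, 47.5 and 47.1 nFPKM in WPF. A wide gap separated the groups, KPF 2 included, and the log2 fold change was -0.99 (SE 0.22, unadjusted p = 0.00205, adjusted p = 0.415). Without KPF 2 the log2 fold change was -0.89 (unadjusted p = 0.00724). *Slc25a4*, the form of heart and muscle, stood at 4.78, 211 and 2.57 in KPF and at 2.53, 2.72 and 2.46 nFPKM in WPF, its call resting on KPF 2 (log2 fold change 4.82, SE 1.60, unadjusted p = 0.0179 with 6 libraries and 0.51, unadjusted p = 0.182, without KPF 2, and an unadjusted p between 0.0521 and 0.0554 without any 1 WPF library). These 2 genes were called out of 7 tested genes of ATP and phosphate exchange.

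The promoters of the nuclear members were searched for short motifs on both strands, in windows from 250 bases before to 50 bases after the gene start. Whether a motif relates to the level of a member in any library was not tested. RefSeq windows (GRCm38.p6) were matched for 65 of the 84 nuclear members and for 27025 genes in all, 7796 of them among the tested genes. The core GCGCATG of the site of nuclear respiratory factor 1 (NRF1) was in 13 of the 65 (20.0%), against 4.41% of all genes and 8.11% of the tested genes. The ETS motif CCGGAAG was in 16 (24.6%), against 9.93% and 21.2%, and the YY1 motif AAGATGG in 10 (15.4%), against 7.28% and 8.88%. The muscle E-box CAGCTG was in 6 (9.23%), against 18.3% and 16.9%. None of these motifs contains another. The NRF1 core was in *Ndufa6*, *Ndufa8*, *Ndufa11*, *Ndufb6* and *Ndufb8* of complex I, in *Sdhb*, in *Uqcrc1* and *Uqcr11*, in *Cox5b* and *Cox6a1*, and in *Atp5g2*, *Atp5k* and *Atp5l*. The stretches of the called gene *Cox6a1* and of *Atp5k*, which was not called, are shown with the motif in capitals, which covers more letters where the cores of both strands overlap:
Cox6a1, chr5:115349081-115349150, minus strand: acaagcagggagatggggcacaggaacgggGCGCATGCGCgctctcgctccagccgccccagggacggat
Atp5k, chr5:108434410-108434479, minus strand: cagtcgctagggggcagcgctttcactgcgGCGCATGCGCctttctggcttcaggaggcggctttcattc
For the muscle form *Cox8b* the stretch just before the gene start is shown with its E-box in capitals. *Cox7a1* had none of the 4 motifs in its window.
Cox8b, chr7:140900447-140900495, minus strand: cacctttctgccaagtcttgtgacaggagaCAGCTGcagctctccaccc
*Atp5k* stood at 47.8, 165 and 91.7 in KPF and at 150, 124 and 81.8 nFPKM in WPF (log2 fold change -0.23, SE 0.45, unadjusted p = 0.630), with KPF 2 the highest library and overlapping groups.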

How the data were processed

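Liver RNA of 3 KPF and 3 WPF dams was sequenced after poly(A) selection, and samples were grouped by their labels. The deposited table pairs raw read counts with FPKM per gene, as the authors made them, and the FPKM equal the counts divided by exonic length and by the library's total of counted reads (largest difference 0.005). The submitters' processing notes name cutadapt 1.9.1, HISAT2 2.2.1, HTSeq 0.6.1, DESeq2 and GRCm39, and the counting mode and strand are not given in the sources used here. Symbols were found for 52073 of 56691 gene IDs (GENCODE, GRCm38). Depth was 10694496 to 14496630 counted reads, so genes with few reads carry a large counting error.

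A mean FPKM of 1 or more was reached by 10866 genes, whose deposited counts were fitted together by edgeR 4.0.16 (R 4.3.3, TMM, quasi-likelihood test, Benjamini-Hochberg adjusted p over all tested genes). A call needed an unadjusted p under 0.05 and a fold of at least 1.5. Standard errors (SE) come from that fit, and p or adjusted p in parentheses belong to it unless another test is named. An exact two-sided permutation test of 3 against 3 cannot give a p under 0.1. The dams are separate samples, and nothing in the sources says more of litters or batches, so the p-values measure the spread between these dams. Alternatives were limma 3.58.1 on log2(FPKM + 1) and log2(FPKM + 0.1), DESeq2 1.42.0, other scalings and minimums, removal of a trend on exonic length, a replicate block and leaving out each library. Nuclear copies were found among annotated transcripts with blastn 2.17.0.

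The members, the gene lists and the rule for naming genes were chosen with earlier results of these data known. The rule took the mitochondrial members, core subunits, complex IV isoforms, called members and each complex's highest and lowest nuclear member, and 1 of these genes is not reported here. Genes named beyond it (*Ndufa4*, *Ndufa6*, *Ndufs5*, *Cox6c*, *Cox7b*, *Cox7c*, *Cox7a2l*, *Atp5k*, *Atp5g1*, *Atp5g2*, *Atp5g3* and the listed genes that are no members) were chosen after their values were seen.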

Additional observations from a re-analysis of the deposited data

How the results depend on the processing

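Each result was recomputed under 21 alternatives, and the cause of a change was not tested unless given. Against 5 members called higher and 3 called lower, limma on log2(FPKM + 1) or log2(FPKM + 0.1) called 3 and 10, DESeq2 5 lower, library totals in place of TMM 8 lower, no minimum 10 lower, removal of the length trend 9 lower, and filterByExpr 3 higher. Leaving out each library in turn gave 1 to 7 higher and 0 to 28 lower. The counts at an unadjusted p under 0.05 without the fold minimum gave the values just listed, except that limma gave 5 higher in both forms, and that library totals gave 7 higher against 6 called and leaving out KPF 3 gave 5 higher against 4 called. DESeq2, whose p is missing for the 3 muscle forms, gave 156 genes with an adjusted p under 0.05 and no minimum gave 286, against 0 in the main test and 0 to 5 without single libraries (5 without WPF 4). The 286 include *Cox6a2*, *Cox7a1* and *Cox8b* (unadjusted p = 1.4e-05, 0.000193 and 8.3e-05 in edgeR's test with no minimum), whose reads lie nearly all in KPF 2. Without single libraries the median ranged from -0.45 to 0.14 in complex I, -0.61 to -0.16 in II, -0.64 to -0.17 in III, -0.57 to 0.11 in IV and -0.66 to -0.04 in V, lowest in each without KPF 2 and highest without KPF 1. The difference of the mitochondrial and nuclear levels ranged from 0.55 (without KPF 1) to 1.19 (without KPF 2). The median over all genes was 0.02, but -0.12 with library totals, where it was -0.30 over the nuclear and 0.49 over the mitochondrial members, and -0.09 and -0.12 with limma.

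The labels number the replicates, but the sources do not say that equal numbers share a litter or batch, and only numbers 2 and 3 occur in both groups. The deviations of equal numbers from their group means correlated at 0.04 and -0.02. With only numbers 2 and 3 to compare, these values cannot show whether equal numbers share a litter or batch. The fit with the replicate number as a block called 3 members higher, and 3 at an unadjusted p under 0.05, and gave 0.33 for the difference of the mitochondrial and nuclear levels. It did not call the members *mt-Co2* (0.87, unadjusted p = 0.188), *Cox6a1* (-0.70, unadjusted p = 0.0890), *Cox7a1* (3.56, unadjusted p = 0.114) and *Cox8b* (5.67, unadjusted p = 0.0556). Nor did this fit call *Bcs1l* (0.60, unadjusted p = 0.0841), *Sirt1* (-0.40, unadjusted p = 0.219), *Slc25a4* (3.24, unadjusted p = 0.168) and *Reln* (0.43, unadjusted p = 0.113). The block changed the sign of *Cox5a* (0.15), *Cox5b* (0.0107) and *Ndufv1* (-0.0166).

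Without single libraries the log2 fold changes ranged as follows, from lowest to highest: *Atp5b* -0.10 to 0.34, *Cox4i1* -0.93 to 0.0151, *Cox5a* -0.51 to 0.13, *Cox5b* -0.52 to 0.21, *Cox6b1* -0.25 to 0.36, *Cox7a1* -0.61 to 5.46, *Cox8b* -0.72 to 7.84, *mt-Co3* -0.77 to 0.86, *Ndufs1* -0.45 to 0.0120, *Ndufs3* -0.0074 to 0.62, *Ndufs7* -0.0330 to 0.86, *Ndufs8* -0.0744 to 0.28, *Ndufv1* -0.48 to 0.19, *Ndufv2* -0.16 to 0.35, *Sdhb* -0.52 to 0.16, *Uqcrc1* -0.61 to 0.12 and *Uqcrh* -0.56 to 0.11. Of the genes named beyond the rule the sign turned for *Atp5g2* -0.15 to 0.28, *Atp5k* -0.77 to 0.11, *Cox7b* -0.36 to 0.0424 and *Cox7c* -0.23 to 0.17. *Ndufv1*, at 0.00 in the main test, was -0.0943 with library totals, -0.0017 with TMM computed without mitochondrial genes, -0.0653 with no minimum, -0.0264 with filterByExpr and -0.0233 with the length trend removed. With limma and a pseudocount of 1 or 0.1 the values were -0.0198 and -0.0201 for *Cox6b1*, 0.0291 and 0.0301 for *mt-Co3*, -0.20 and -0.21 for *Ndufv1* and -0.0116 and -0.0127 for *Ndufv2*.

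Alternatives chosen after the data were seen were adding the reads of nuclear copies, which turned *mt-Co3* to 0.18, leaving out the muscle forms, after which 2 members were called higher, and keeping only the most abundant mitochondrial members. FilterByExpr gave no value for *Cox6a2* and *Cox8b*, and a minimum of 5 FPKM none for *Cox6b2* and *Atp5s*. With 3 libraries a group, KPF 2 carrying muscle RNA and WPF 4 low in mitochondrial reads, single libraries set much of these results. Reads shared by mitochondrial genes and nuclear copies, and by members and pseudogenes, limit single levels, and members with under 100 reads, such as *mt-Nd4l* and *Cox6b2*, carry a large counting error.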
